A study of Mus musculus with 4 samples.

Results

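Immune cells other than macrophages formed a small group of 54 cells among the 11221 cells kept from 4 single-cell RNA libraries of sorted embryonic mouse skin. A cell was kept when at least 2000 genes were detected and mitochondrial genes held under 10% of its UMIs (unique molecular identifiers, each standing for 1 captured RNA molecule). Levels within a cell are given as UMIs per 10000 UMIs of that cell (p10k). A kept cell entered the group when the pan-immune genes Ptprc, Tyrobp, Fcer1g and Cd52 summed to at least 2 p10k. It also had to stay under 5 p10k for C1qa, C1qb and C1qc (complement genes of macrophages), under 10 p10k for Krt5 and Krt14 (basal keratins) and under 20 p10k for Col1a1, Col1a2 and Col3a1 (fibroblast collagens). The cells were thus chosen on measured levels, and those 12 genes describe the group without testing anything.

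The libraries came from dorsal skin of embryos labelled E16.5, sorted as Epcam+α6+ basal cells, with 1 embryo per library and 2 embryos per genotype. The list of litters that came with the study can be read as naming an earlier day for the litter used, and the sample labels were followed. All embryos carried floxed Suv39h1 (Suv39h1 f/f) and floxed Setdb1 (Setdb1 f/f), lacked Suv39h2 (Suv39h2-/-), and were exposed to tamoxifen. The 2 control libraries (Ctrl 1 and Ctrl 2) were K14CreERT2-, and the 2 triple knockout libraries (TKO 1 and TKO 2) were K14CreERT2+. K14CreERT2 is driven by the keratin 14 promoter of basal keratinocytes, which is not known to be active in blood-derived cells, so in both groups the immune cells were of a genotype without Suv39h2 and with floxed alleles that Cre was not designed to reach. The study describes loss of the mark as mosaic in TKO epidermis. The sort should leave immune cells out, so the 54 cells are those that passed a gate meant for keratinocytes and do not sample the immune cells of the skin.

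Suv39h1, Suv39h2 and Setdb1 are the methyltransferases behind H3K9me3, which marks silenced chromatin. Embryonic skin is colonised before birth by macrophages, mast cells, dendritic cell precursors and lymphocytes. Mast cells store proteases, histamine and heparin in granules and answer to IgE, stem cell factor and interleukin 33. Dendritic cells present antigen on MHC class II. Basophils, monocytes, innate lymphoid cells and B cells reach fetal tissues through the blood.

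The label was checked against pan-immune genes and against macrophage markers. Of 20 pan-immune genes that the rule did not use, such as Spi1, Laptm5, Coro1a and Srgn, a cell showed a median of 14 (range 0 to 19), and 53 of the 54 cells showed at least 3. The words "other than macrophages" held less well for 6 TKO cells described below as monocyte or macrophage-like, which showed 4 to 16 of 21 macrophage markers at 46.3 to 380 p10k, and 1 further cell had no lineage. The cells held 5189 to 41095 UMIs (median 13039), 2076 to 7566 genes (median 3677) and 0.441% to 8.84% mitochondrial UMIs (median 1.24%). They were shallower than the 8292 keratinocytes (kept cells with at least 10 p10k of Krt5 and Krt14 and under the pan-immune, C1q and collagen limits), whose median was 22686 UMIs, and than the 883 macrophages (cells that reached the pan-immune sum and the C1q limit and stayed under the keratin and collagen limits), whose median was 19175 UMIs. Of the keratinocytes, 6.46% held at least 1 UMI of the pan-immune sum, and the source of these UMIs was not tested. No barcode of the 54 cells occurred among the kept cells of another library, while 9 kept barcodes in all did.

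The limits cut cleanly on most sides. The pan-immune sum was reached by 1019 kept cells, of which 963 were at or over the C1q limit. Of the cells not over it, 2 were over the collagen limit and 0 over the keratin limit. The lowest pan-immune sums inside were 2.84 and 3.52 p10k, and the highest outside were 1.70 and 1.63 p10k. The highest C1q sums inside were 4.76 and 0.856 p10k, and the lowest outside were 5.77 and 6.38 p10k. For collagen, the highest sums inside were 3.85 and 1.78 p10k and the sums outside were 63.2 and 162 p10k. The highest keratin sums inside were 7.71 and 4.81 p10k.

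The question the genotypes pose is whether the TKO libraries held more of these cells. Ctrl 1 held 6 of 3196 kept cells, 0.188% (95% exact Clopper-Pearson interval 0.0689 to 0.408). Ctrl 2 held 6 of 3391, 0.177% (0.0650 to 0.385). TKO 1 held 22 of 2161, 1.02% (0.639 to 1.54), and TKO 2 held 20 of 2473, 0.809% (0.495 to 1.25). Both TKO libraries lay above both Ctrl libraries, and the intervals of the genotypes did not overlap. These intervals cover counting error only. The mean share was 0.182% ± 0.00763 (SD, n = 2) in Ctrl and 0.913% ± 0.148 (SD, n = 2) in TKO, a 5.01-fold ratio and a difference of 0.731 percentage points. The exact two-sided permutation test over the 4 libraries gave p = 0.3333, the smallest value that 2 against 2 libraries allow, so the design cannot pass a threshold of 0.05.

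**Figure D1:**
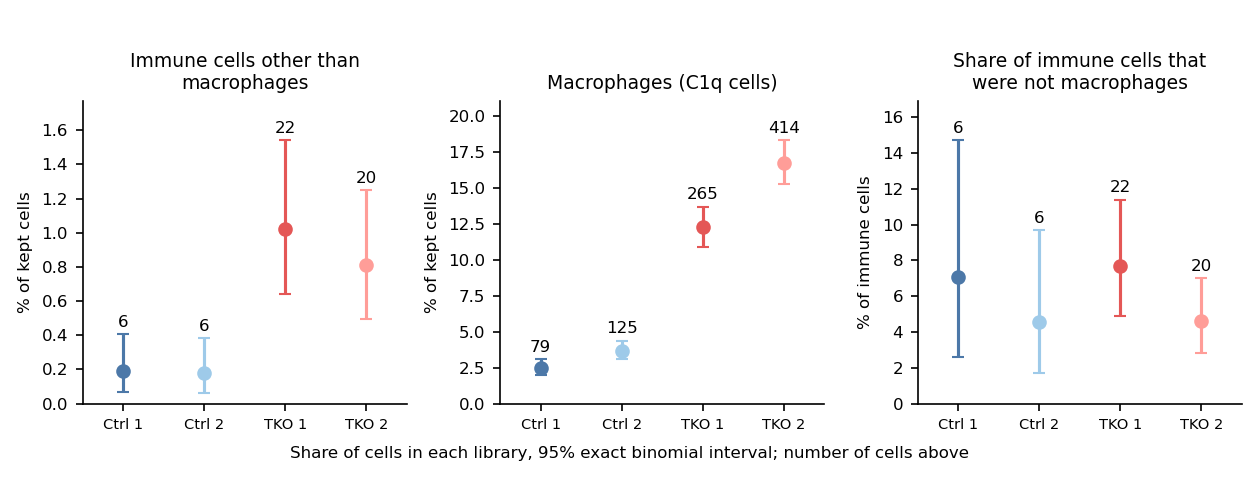
Share of cells in each library (vertical axes in percent) with 95% exact binomial intervals and the number of cells above each point, for immune cells other than macrophages, for macrophages, and for the first as a share of both. The TKO points lie above the Ctrl points in the first 2 panels (0.188 and 0.177% against 1.02 and 0.809%, and 2.47 and 3.69% against 12.3 and 16.7%), while in the third panel the genotypes overlap between 4.58 and 7.67%.

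Other cells outside the keratinocyte lineage were also more frequent in the TKO libraries. Macrophages made up 2.47% and 3.69% of kept cells in Ctrl 1 and Ctrl 2 and 12.3% and 16.7% in TKO 1 and TKO 2, a 4.71-fold ratio of means (exact two-sided permutation p = 0.3333). Cells at or over the collagen limit and under the keratin limit made up 3.38%, 3.13%, 8.93% and 5.50% in the same order of libraries. The keratin limit also held for the melanocyte and vessel counts that follow. Cells with at least 20 p10k of the melanocyte genes Dct, Pmel and Mlana made up 0.0626%, 0.0590%, 1.02% and 0.364%. For Pecam1, Cdh5 and Kdr, genes of blood vessels, cells with at least 5 p10k made up 0.125%, 0.118%, 0.185% and 0.162%, so vessel cells differed least of these between the genotypes. The part of these shifts in the result, and of the number of keratinocytes recovered, was not tested. Within the immune cells the balance was close: cells other than macrophages made up 7.06%, 4.58%, 7.67% and 4.61% of these cells and macrophages together, a difference of 0.317 percentage points between the genotype means (exact two-sided permutation p = 0.6667).

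The 54 cells fell into 6 lineages and 1 cell that fitted none. Each cell was given the lineage whose marker list it showed most completely, with at least 3 markers detected, and the Langerhans list counted toward the dendritic-like lineage. There were 29 mast-like, 10 dendritic-like, 6 monocyte or macrophage-like, 4 basophil-like, 3 T or innate lymphoid-like cells and 1 B lymphoid-like cell. None of the 54 cells was placed as a neutrophil, an eosinophil or a megakaryocyte, and 0 of 54 cells allows a share of up to 5.56% for each, with 3 cells taken as the limit of 0. Kept cells outside the 54 were not placed. In 7 cells a second list came within 0.1 of the best one as a share of markers shown, and 41 of the 54 cells received the same lineage when Leiden clusters of the cells were named from the same markers. These were 27 mast-like, 10 dendritic-like and 4 basophil-like cells, while the 3 T or innate lymphoid-like, 1 B lymphoid-like and 6 monocyte or macrophage-like cells all lay in clusters named dendritic, so those 3 lineages rest on the marker lists of single cells.

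**Figure D2:**
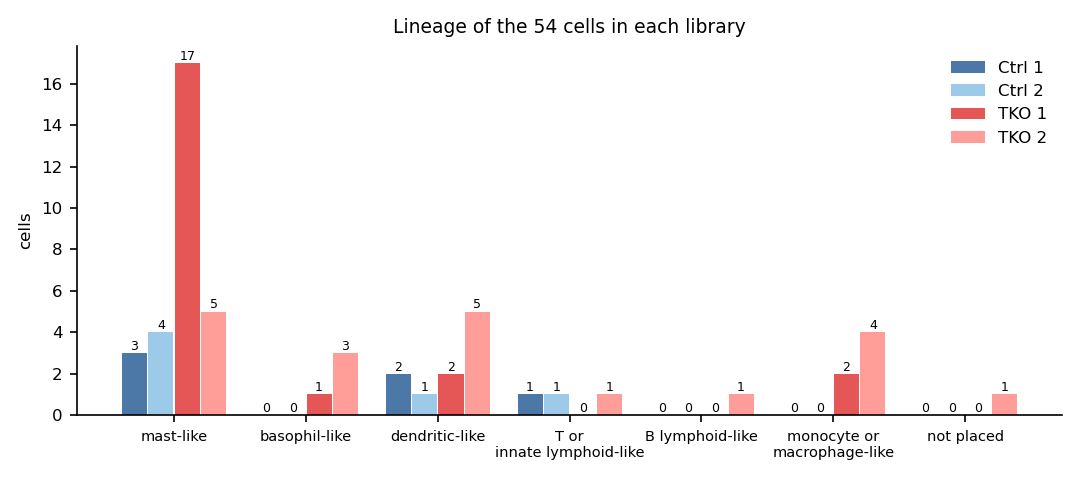
Number of cells (vertical axis) of each lineage in Ctrl 1, Ctrl 2, TKO 1 and TKO 2. Mast-like cells number 3, 4, 17 and 5, dendritic-like cells 2, 1, 2 and 5, and basophil-like and monocyte or macrophage-like cells occur in the TKO libraries, with 1 and 3 and with 2 and 4 cells.

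**Figure D3:**
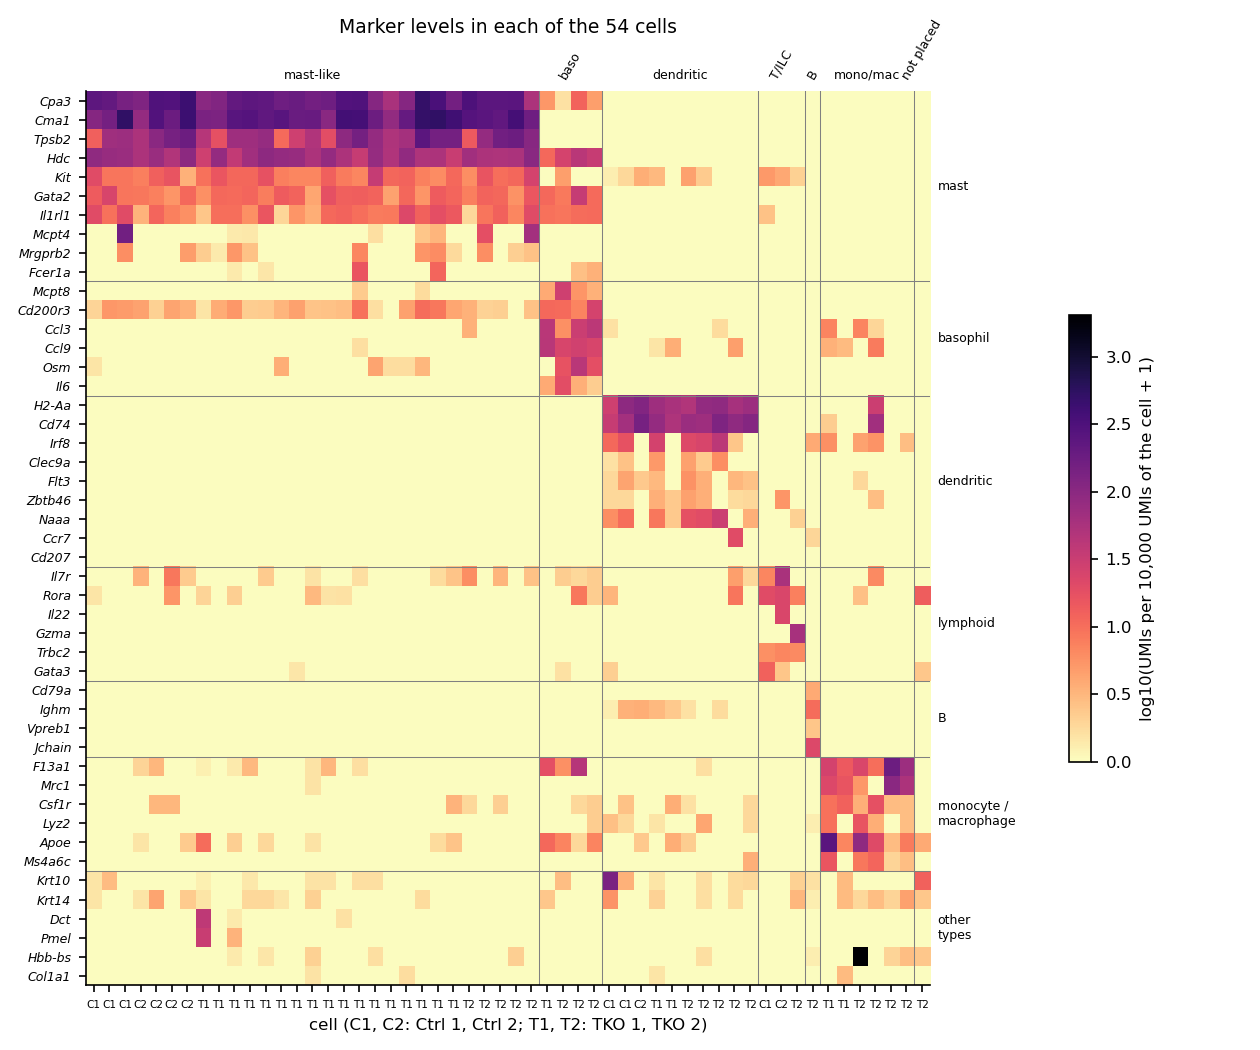
Level of 47 marker genes (rows) in each of the 54 cells (columns, with the library under each), as log10 of UMIs per 10000 UMIs plus 1. Many of these genes also placed the cells, so the blocks in part restate the placement, and they are not clean. Cd207 is at 0 in the 10 dendritic-like cells, and Cpa3, Hdc and Gata2 also occur in the 4 basophil-like cells. Mcpt4 is seen in 8 of the 29 mast-like cells, and the lowest block shows the cells that also carried keratin, pigment or haemoglobin RNA.

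Mast-like cells were present in all 4 libraries, 3 in Ctrl 1, 4 in Ctrl 2, 17 in TKO 1 and 5 in TKO 2. All 5 of TKO 2 were among the cells with the highest doublet scores in proportion to loading, and leaving out such cells left 1, 2, 16 and 0 mast-like cells, so every mast-like value of TKO 2 rests on them. Their part in these values was not tested. Mast-like cells made up 50% of the immune cells other than macrophages in Ctrl 1 (11.8 to 88.2), 66.7% in Ctrl 2 (22.3 to 95.7), 77.3% in TKO 1 (54.6 to 92.2) and 25% in TKO 2 (8.66 to 49.1). The TKO embryos lay at both ends, and the intervals of TKO 1 and TKO 2 did not overlap, so the spread between embryos of 1 genotype was larger than the difference between genotypes. The means were 58.3% ± 11.8 in Ctrl and 51.1% ± 37.0 in TKO (SD, n = 2 each; exact two-sided permutation p = 1). As a share of kept cells, mast-like cells made up 0.0939%, 0.118%, 0.787% and 0.202% in the same order (exact two-sided permutation p = 0.3333).

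Genes of granule proteins were among the highest in the mast-like cells of every library. Cma1, Cpa3 and Srgn lay within 1.42-fold between libraries, while the tryptase gene Tpsb2 ranged over 2.31-fold and the chymase gene Mcpt4 was at 0 in Ctrl 2. Levels of a group of cells in 1 library are given in CPM, the gene's UMIs summed over those cells per 1000000 of their summed UMIs. Cma1, the mast cell chymase, gave 21093 CPM in Ctrl 1, 20059 in Ctrl 2, 23813 in TKO 1 and 26159 in TKO 2. It was found in 29 of 29 mast-like cells, at 81.6 to 528 p10k (median 225), and in 0 of the other 25 cells. Keratinocytes, which should lack it, held 35 UMIs in 34 of 8292 cells. Cpa3, carboxypeptidase A3, gave 20712, 24222, 19010 and 23942 CPM in the same order, and cells ranged from 52.9 to 506 p10k. Neither gene differed between the libraries by as much as cells differed within 1 library. Both are on the mast list that placed the cells, as are Tpsb2, Hdc, Kit, Il1rl1 and Gata2 below. Their presence in the mast-like cells therefore in part restates the placement.

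Tpsb2, a tryptase, gave 4358, 10071, 6930 and 9963 CPM, and its near copy Tpsab1 gave 423, 589, 382 and 329. Reads of these neighbouring tryptase genes (chromosome 17, GRCm39, 25585170 to 25588079 and 25562212 to 25564541) can be split between them, so their ratio is uncertain. Hdc, which makes histamine, gave 8293, 6371, 6031 and 6210 CPM. Srgn, the core protein on which granule proteoglycan is built, gave 9118, 12910, 11266 and 12136. Slc18a2, the transporter that loads amines into granules, gave 127, 147, 155 and 132. Of 17 mast cell mediator genes, 16 were detected in the mast-like cells, and Ltc4s, leukotriene C4 synthase, was at 0. The summed level of the 17 genes was 685, 749, 683 and 808 p10k in the mast-like cells of the 4 libraries.

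Some receptors and regulators of mast cells were present in every mast-like cell, at lower levels, and others in part of the cells. Kit, the receptor of stem cell factor, gave 1291, 862, 1048 and 1163 CPM. Il1rl1, the receptor of interleukin 33, gave 1544, 526, 817 and 790. Gata2, a transcription factor of mast cells and basophils, gave 1523, 715, 931 and 900. Each of these 3 was found in 29 of 29 cells. Mitf, which regulates mast cell and pigment cell genes, was found in 27 of 29 cells and Fcgr3, an IgG receptor, in 29 of 29. The IgE receptor was uneven. Its signalling chain Fcer1g, part of the selecting rule, was in all of these cells, its beta chain Ms4a2 gave 41 UMIs in 13 of 29 cells, and its IgE-binding chain Fcer1a gave 39 UMIs in 4 cells, all of TKO 1.

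**Figure D4:**
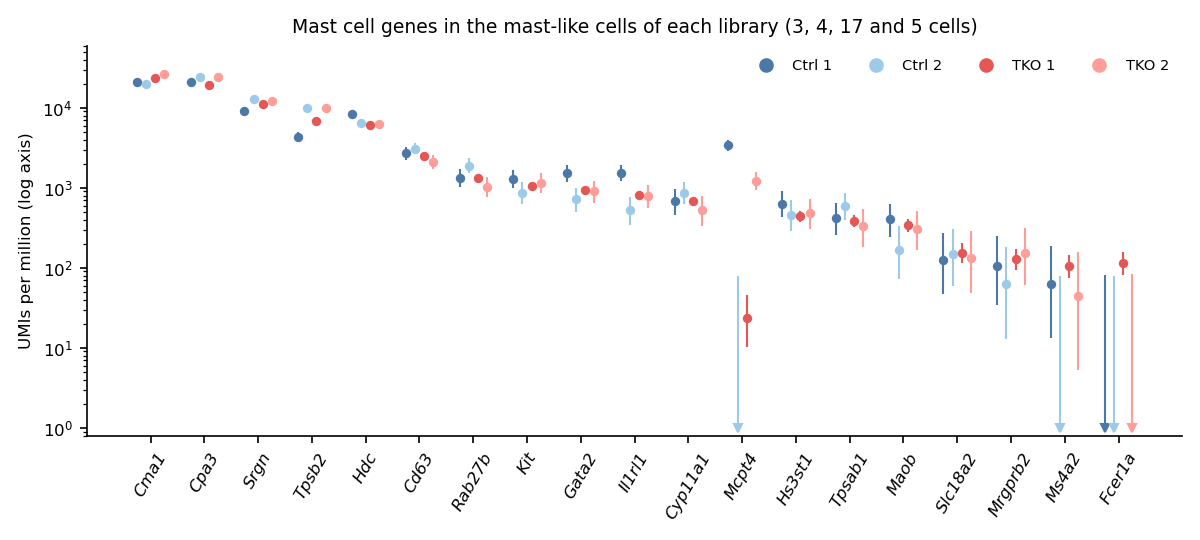
Level of 19 mast cell genes in the mast-like cells of each library, in CPM on a log axis, with exact Poisson 95% intervals; a triangle marks 0 UMIs with its upper limit. Cma1 and Cpa3 lie between 19010 and 26159 in all 4 libraries, while Mcpt4 spans from 0 in Ctrl 2 to 3427 in Ctrl 1.

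Mcpt4, the chymase of connective tissue mast cells, separated cells within the lineage. It was found in 8 of 29 mast-like cells, with 226 UMIs in all, and 162 of them came from 1 cell of Ctrl 1. In CPM the libraries stood at 3427 in Ctrl 1, 0 in Ctrl 2 (exact Poisson upper limit 77.6), 23.4 in TKO 1 and 1229 in TKO 2. The values of the genotypes overlapped and rested on few cells. The gene lies with Cma1 and the basophil protease Mcpt8 on chromosome 14 (GRCm39, minus strand), Cma1 at 56178908 to 56182132, Mcpt4 at 56297086 to 56299770 and Mcpt8 at 56319623 to 56322730. Mrgprb2, the receptor through which basic peptides activate connective tissue mast cells, gave 59 UMIs in 13 of 29 cells.

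Clustering split most mast-like cells into a pair of groups that differed in these genes, which is a description because the same cells were clustered. A cluster of 13 cells (1, 1, 6 and 5 cells by library, median 12045 UMIs) was led by Mcpt4 (224 against 1 UMIs in the other cluster) and Ifitm1. Next came the lysosomal protease gene Ctsj (149 against 6 UMIs) and Mrgprb2 (38 against 5 UMIs, 13.6-fold in CPM). Only 6 of the 13 cells held Mcpt4 and 5 held Ctsj, while 9 held Mrgprb2. A cluster of 14 cells (2, 3, 9 and 0 cells, median 19998 UMIs) was led by the transcription factor gene Erg (93 against 4 UMIs, 13-fold), found in 10 of the 14. Genes of dividing cells followed, among them Ube2c (63 against 2 UMIs), Top2a (43 against 1) and Birc5 (43 against 0), each found in 5 cells. Depth differed between the clusters as well, and its part was not tested. All 14 cells of the second cluster came from Ctrl 1, Ctrl 2 and TKO 1.

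Division was seen in few cells. Of 29 mast-like cells, 7 showed at least 3 of 12 cycling markers, and the highest summed levels were 37.7 and 55.2 p10k, both in TKO 1. The mast-like cells of the 4 libraries summed to 1.27, 1.05, 9.52 and 0.219 p10k for the cycling list. TKO 1 stood apart and TKO 2 was the lowest, so the genotypes overlapped.

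Against the other 25 cells, the leading genes of the mast-like cells, after Cma1, Tpsb2 and Cpa3, were Calca, Smpx, Creb3l1, Ctla2a, Hs6st2 and Gnai1. Calca, which encodes the peptide CGRP, gave 856 UMIs in 22 of 29 mast-like cells and 0 in the other 25 cells, at least 189-fold higher (3 UMIs taken as the floor over the other cells). By library it stood at 1798, 3659, 1220 and 3928 CPM, and the genotypes overlapped. Smpx and Hs6st2 (a heparan sulfate sulfotransferase) were each in 29 of 29 mast-like cells and 0 of the others. The serotonin transporter gene Slc6a4 was also in 29 of 29 mast-like cells, at 2073, 1703, 1311 and 2151 CPM. Among type 2 cytokines, Il4 gave 39 UMIs in 20 mast-like cells and Il13 gave 28 UMIs in 8, of which 14 were in Ctrl 1 and 14 in TKO 1.

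The 4 basophil-like cells were 1 cell of TKO 1 and 3 cells of TKO 2, with 0 in Ctrl 1 and Ctrl 2, where 0 cells allow up to 0.0939% and 0.0885% of kept cells by the same limit of 3 cells (the exact 95% upper limits are 0.115% and 0.109%). They shared Hdc (120 UMIs), Gata2 (66 UMIs) and Il1rl1 (38 UMIs) with the mast-like cells but held 0 UMIs of Cma1 and only 20 of Cpa3. Mcpt8, the basophil protease, gave 2, 45, 5 and 2 UMIs in the 4 cells and 3 UMIs in the other 50 cells. Cd200r3, an activating receptor of basophils and mast cells, gave 7, 16, 7 and 20 UMIs. Prss34, another basophil protease, gave 1 UMI in all. Mcpt8, Cd200r3 and Prss34 are on the basophil list that placed these cells, so their presence in part restates the placement.

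Among the 54 cells, the 4 basophil-like cells held most UMIs of several cytokine genes. Il6 gave 35 UMIs in 4 of 4 cells and 0 in the other 50, at least 205-fold higher in CPM. The chemokine genes Ccl9 (118 UMIs), Ccl3 (105) and Ccl6 (99) and the cytokine gene Osm (87) were far lower in the other 50 cells (20, 19, 9 and 17 UMIs). Csf1, the macrophage growth factor, gave 30 UMIs in 4 of 4 cells against 4 UMIs in the other 50. Over all 4 libraries macrophages stood at 0.616 CPM for Il6, 182 for Ccl9, 230 for Ccl3 and 17.9 for Csf1, and keratinocytes at 12 for Csf1, while the basophil-like cells stood at 810, 2731, 2430 and 694. In summed UMIs the more numerous macrophages (4484 of Ccl3, 349 of Csf1) and keratinocytes (2614 of Csf1) held more. Of 30 cytokine and chemokine genes, 11 were detected in these 4 cells, with a summed level of 102 to 142 p10k per cell. In the mast-like cells the same list held 0 to 7.97 p10k. The stress response list, which includes Fos and Jun and rises when tissue is dissociated, was also highest by median in the basophil-like cells, at 145 to 259 p10k (median 205) against 19.9 to 171 p10k (median 53.2) in mast-like cells. Its part in the cytokine levels was not tested. Basophil-like cell 2, the deepest of the 4 with 16382 UMIs, also held 31.1 p10k of keratinocyte genes.

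The 10 dendritic-like cells numbered 2, 1, 2 and 5 by library. In 5 of them (cells 3, 5, 8, 9 and 10) the Langerhans list was shown more completely than the dendritic list. Both lists hold Cd74, H2-Aa, H2-Ab1 and H2-Eb1, so the levels of these genes restate how the cells were placed. H2-Aa gave 981 UMIs in 10 of 10 cells at 27.4 to 116 p10k (median 70.1), and in the other 44 cells 33 UMIs, all in 1 monocyte or macrophage-like cell. H2-Ab1 gave 545 UMIs and H2-Eb1 847 UMIs, and Cd74, the invariant chain that chaperones MHC class II, gave 1157 UMIs. The H2-Aa and H2-Eb1 annotations overlap on opposite strands (chromosome 17, GRCm39, 34493404 to 34506798 and 34504236 to 34535648). All 17 antigen presentation genes, 6 of which are on the dendritic list, were detected in these cells, at 125 to 452 p10k per cell. Macrophages in the same libraries held 19 UMIs of H2-Aa in 4 of 883 cells.

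Most dendritic-like cells carried genes of conventional type 1 dendritic cells. Irf8, their lineage factor, gave 232 UMIs in 7 of 10 cells, at 13.2 p10k in the median cell. The dead-cell receptor gene Clec9a gave 27 UMIs in 6 cells, and Wdfy4, needed for cross-presentation, gave 186 UMIs in 8 cells. Naaa gave 146 UMIs in 8 of 10 cells against 1 UMI in the other 44, and Cadm1 gave 140 UMIs in 7. The dendritic growth factor receptor Flt3 and the factor Zbtb46 were each found in 8 of 10 cells, with 29 and 22 UMIs. Irf8, Clec9a, Flt3 and Zbtb46 are on the dendritic list that placed cells, while Wdfy4, Naaa and Cadm1 are not. Xcr1, another marker of this subset, was at 0 UMIs. Cd207, which encodes langerin of Langerhans cells, was at 0 UMIs in all 10 cells and in 8292 keratinocytes and 883 macrophages as well.

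The dendritic-like cells differed among themselves. Dendritic-like cell 9 (TKO 2) held 26 UMIs of Ccr7, the receptor that guides mature dendritic cells to lymph nodes, with 36 of Ccl22 and 17 of Ccl17, and no other cell of the lineage held Ccr7. Dendritic-like cells 3 (Ctrl 2) and 5 (TKO 1) lacked both Irf8 and Clec9a. Dendritic-like cell 10 (TKO 2) held 10 UMIs of the monocyte chemokine receptor Ccr2 and showed 7 of 13 monocyte markers, 8 of 16 dendritic markers and 7 of 12 Langerhans markers, so it was placed here through the Langerhans list alone. Dendritic-like cell 1 (Ctrl 1, 35342 UMIs) also held 359 p10k of keratinocyte genes, 14 of 15 of that list, with 473 UMIs of Krt10 and 357 of Krt1. Krt10 therefore ranked among the 10 leading genes of the lineage, through that cell. By library, the dendritic-like share of the immune cells other than macrophages was 33.3%, 16.7%, 9.09% and 25%, and the genotype means differed by -7.95 percentage points (TKO minus Ctrl, exact two-sided permutation p = 0.6667). The sign was not stable, and the difference was 0.379 percentage points without Ctrl 1, 0.317 without the 4 cells that carried other RNA, 1.86 with a minimum of 3000 genes and 1.97 by Leiden clusters.

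The 3 T or innate lymphoid-like cells each showed another programme. Cell 1 (Ctrl 1) held Gata3 (14 UMIs), Icos (13), Rora (23), Il2ra (13) and Tox (26), genes of type 2 lymphocytes, with 1 UMI of Il13. It also held 18 UMIs of the progenitor gene Hlf. Its best list was shown at a share of 0.389 and the Langerhans list at 0.333. Cell 2 (Ctrl 2) held Il7r (38 UMIs), Il22 (15), Rora (15), Tcf7 (12) and Il23r (3), genes of type 3 lymphocytes, and was the source of all 15 UMIs of Il22 in the 54 cells. Cell 3 (TKO 2) held Gzma (54 UMIs), Ccl5 (40), Klrk1 (9), Klrd1 (7) and Ifng (2), genes of cytotoxic lymphocytes, at 8.84% mitochondrial UMIs. All 3 cells held Trbc2, a T cell receptor constant region (6, 4 and 5 UMIs), whose reads can be split with its near copy Trbc1. TKO 1 held 0 of these cells, which allows up to 0.139% of kept cells by the limit of 3 cells.

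The B lymphoid-like cell (TKO 2, 34079 UMIs) showed 11 of 11 B cell markers. It held Ighm (32 UMIs), Cd79a (10), Ebf1 (8), and the surrogate light chain genes Igll1 (7) and Vpreb1 (5) of precursor B cells. Jchain gave 72 UMIs and Igkc 21, both at 0 in the other 53 cells. It showed 12 of 12 cycling markers, at 20 p10k.

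The 6 monocyte or macrophage-like cells, 2 of TKO 1 and 4 of TKO 2, were cells with macrophage or monocyte genes that fell under the C1q limit. F13a1, a transglutaminase gene of monocytes and tissue macrophages, gave 21, 7, 26, 10, 184 and 40 UMIs in the 6 cells. Mrc1, the mannose receptor gene of tissue macrophages, gave 17, 8, 5, 0, 104 and 29. Csf1r, the receptor of Csf1, gave 7, 6, 3, 19, 2 and 1, and Lyz2, a lysozyme, gave 7, 0, 18, 3, 0 and 1. The cells differed in which of these genes they held. Cell 5 stood just under the C1q limit with 4.76 p10k, and cell 4 also held 33 UMIs of H2-Aa, 73 of Cd74 and a share of 0.688 of the dendritic list. Cell 3 held 3024 p10k of haemoglobin genes, with 2404 UMIs of Hbb-bs. The 0 cells of Ctrl 1 and Ctrl 2 again allow up to 0.0939% and 0.0885% of kept cells.

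The cell of no lineage (TKO 2, 7052 UMIs) was the one with the lowest pan-immune sum, 2.84 p10k. It showed 0 of the 20 further pan-immune genes, 102 p10k of keratinocyte genes with 10 of 15 on the list, and 8.61% mitochondrial UMIs. In all, 4 of the 54 cells carried over 100 p10k of keratinocyte, pigment or haemoglobin genes, namely this cell, dendritic-like cell 1, monocyte or macrophage-like cell 3, and mast-like cell 8 (TKO 1, 41095 UMIs, the deepest of all), which held 123 p10k of pigment genes with 8 of 8 on the list. In the other cells the keratinocyte list reached at most 31.1 p10k, the pigment list 25.1 p10k and the haemoglobin list 3.57 p10k. Scrublet's automatic limit marked 0 of the 54 cells as doublets (1, 2, 27 and 31 barcodes in the whole libraries), while the cells with the highest scores in proportion to loading included 11 of the 54. Of these, 10 were mast-like, 2 in Ctrl 1, 2 in Ctrl 2, 1 in TKO 1 and 5 in TKO 2.

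Of the 15 keratinocyte genes, Krt5 and Krt14 were capped by the selecting rule, so the other 13 are given here. In the immune cells they summed to 119 p10k in Ctrl 1, where dendritic-like cell 1 lay, and to 5.18, 2.9 and 8.42 p10k in Ctrl 2, TKO 1 and TKO 2. The keratinocytes of the 4 libraries stood at 172, 154, 85.8 and 146 p10k for the same genes. Among the sort markers, Epcam gave 29 UMIs in the 42 TKO immune cells, against 157 UMIs at the level of the keratinocytes of the same libraries, and Itga6, which encodes α6 integrin, gave 16 against 226. Epcam, which is also on the Langerhans list used to place cells, was uneven between lineages. The dendritic-like cells held 21 of the 37 Epcam UMIs, in 8 of 10 cells, at 136 CPM (exact Poisson 95% interval 84.2 to 208), against 22.8 CPM (11.4 to 40.8) in mast-like cells, 1.80 CPM in macrophages and 229 CPM in keratinocytes. In TKO 2 the dendritic-like level was 194 CPM (106 to 326) beside 222 CPM in keratinocytes. In the 12 Ctrl immune cells the 3 sort genes Epcam, Itga6 and Itgb4 gave 9 UMIs against 119 at the keratinocyte level, 7.54% (upper limit 14.3).

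The targeted genes were seen in few UMIs. Setdb1 gave 6, 0, 24 and 14 UMIs in the immune cells of Ctrl 1, Ctrl 2, TKO 1 and TKO 2, and the 38 UMIs of the TKO cells compare with 26.0 at the TKO keratinocyte level. Suv39h1 gave 1, 0, 6 and 4 UMIs and Suv39h2 gave 0, 0, 3 and 0. A UMI at the 3′ end can come from outside the deleted part, so these counts do not tell whether an allele was deleted.

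Summed, genes that were higher in TKO keratinocytes stood far below the keratinocyte level in the immune cells of the same embryos. A list of 10 such genes came from earlier results on these samples, so its direction in keratinocytes is not independent evidence. In the 42 TKO immune cells these genes gave 36 UMIs (exact Poisson 95% interval 25.2 to 49.8), while 382 would stand at the keratinocyte level, 9.41%. Gm42653 gave 0 UMIs against 185 at the keratinocyte level (upper limit 1.99%), and Gm11884 gave 0 against 23.0. Of the 36 UMIs, 16 were Col28a1, and 15 of these lay in basophil-like cell 2, the cell with 31.1 p10k of keratinocyte genes. Macrophages of the same libraries held 650 UMIs against 8948, 7.26%, of which 562 were Cd28. UMIs of keratinocyte genes were present in both kinds of cell, and their source and their part in these counts were not tested.

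The 9 genes on the matching list of genes lower in TKO keratinocytes, also from earlier results, stood above the keratinocyte level as a sum in the TKO immune cells and below it in the Ctrl immune cells. They gave 297 UMIs (264 to 333) in the 42 TKO immune cells against 71.1 at the keratinocyte level, and 53 UMIs (39.7 to 69.3) in the 12 Ctrl cells against 102. Adamts9, which encodes a secreted protease, made up 105 of the TKO UMIs against 1.46 at the keratinocyte level. Slc24a3, a sodium, potassium and calcium exchanger gene, made up 124 against 32.2, Pde1c 39 against 0.605, and Sox5 27 against 24.2. Of the Slc24a3 UMIs, mast-like cells held 33 of 37 in TKO 1 and 15 of 87 in TKO 2. Basophil-like cell 2 (TKO 2) alone held 34. The other 5 genes of the list gave 2 UMIs in all, Grik4 2 against 11, and Ccer2, Miat, Nrxn3 and Slitrk6 0 each, where 0.0664 to 1.06 would stand. The excess of the sum thus rests on 3 of the 9 genes. In mast-like cells Adamts9 stood at 360, 315, 280 and 198 CPM by library, in 24 of 29 cells. In keratinocytes it stood at 43.5 and 52.9 in Ctrl 1 and Ctrl 2 and at 0.94 and 4.51 in TKO 1 and TKO 2. The intervals of the 4 mast-like levels overlapped, while the keratinocyte levels of the genotypes were separate.

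**Figure D5:**
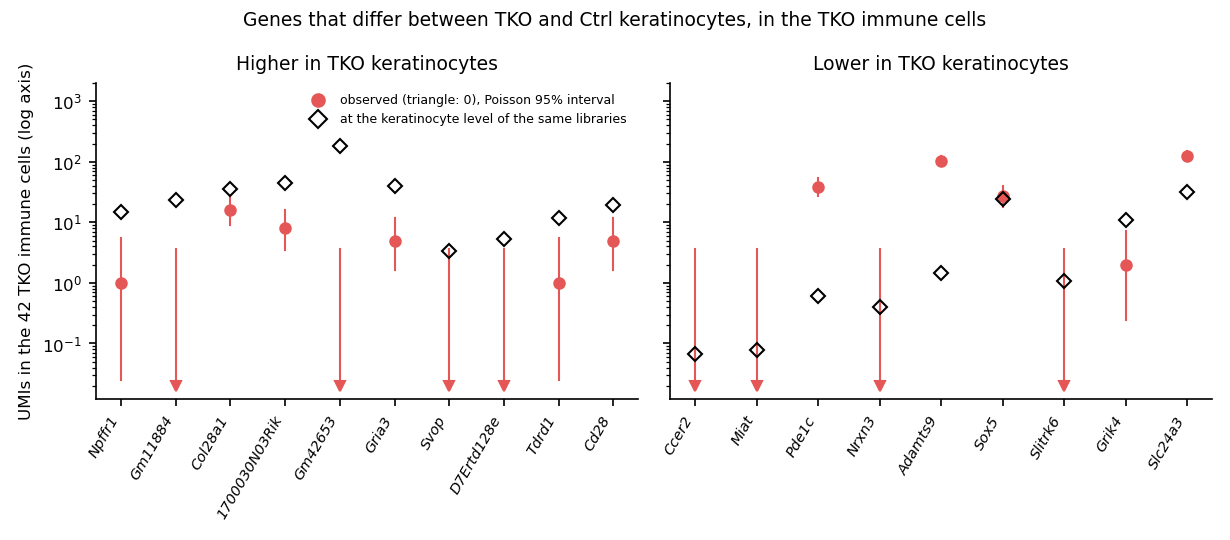
UMIs observed in the 42 TKO immune cells (filled circles with exact Poisson 95% intervals, triangles for 0) and the number that would stand at the level of the keratinocytes of the same libraries (open diamonds), on a log axis, for genes higher (left) and lower (right) in TKO keratinocytes. Most circles on the left lie below their diamonds, as for Gm42653 at 0 against 185, and on the right Adamts9 and Pde1c lie above them, at 105 against 1.46 and 39 against 0.605.

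Whether genotype acted on a gene differently in the immune cells and in keratinocytes was tested with edgeR on UMIs summed per library and cell class, with library as a block. The immune cells differed from keratinocytes in 72 of 18267 genes at an adjusted p under 0.05, which is 0.394% of the genes tested, with 33 more positive and 39 more negative in the immune cells. Without the library block edgeR called 0 genes (1068 at an unadjusted p under 0.05), so every call depends on the block. At an unadjusted p under 0.05 there were 675 genes, and the median difference over all genes was 0.33 on the log2 scale. Many calls rested on few cells. In 35 of the 72 genes 1 cell gave over 50% of the immune UMIs, dendritic-like cell 1 in 24 of them and the haemoglobin-carrying cell in 4. In 14 genes both Ctrl libraries had 0 immune UMIs, and in 3 genes both TKO libraries had 0. Leaving out the 4 cells with keratinocyte, pigment or haemoglobin RNA, a choice made after the data were seen, left 34 genes (23 more positive and 11 more negative), 28 of them among the 72, and DESeq2 called 31 genes. Leaving out all kept cells with the highest doublet scores (144, 157, 66 and 90 by library, 11 of them immune cells of this group) left 15 genes. Without Ctrl 1 there were 32 genes (18 more positive and 14 more negative), without Ctrl 2 58 (15 and 43), without TKO 1 76 (45 and 31) and without TKO 2 37 (10 and 27), so the balance of directions turned with the libraries and cells used.

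H2-Eb1 had the smallest adjusted p. Its UMIs in the immune cells were 202, 59, 133 and 498 in Ctrl 1, Ctrl 2, TKO 1 and TKO 2, and those in keratinocytes were 16, 14, 1337 and 582. It was thus present in the dendritic-like cells of both genotypes and rose in TKO keratinocytes relative to them (difference of log2 changes -6.51, SE 0.625, edgeR adjusted p = 4.1e-21). The neighbouring MHC class II gene H2-Aa gave 2, 1, 0 and 2 UMIs in keratinocytes. Slc24a3 gave 9, 3, 37 and 87 UMIs in the immune cells and 16929, 12294, 3068 and 1868 in keratinocytes (4.13, SE 0.678, edgeR adjusted p = 3.01e-06). Adamts9 gave 17, 15, 96 and 9 against 2568, 2955, 48 and 234 (4.0, SE 0.724, edgeR adjusted p = 3.79e-05).

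The other called genes included several that mark the lineages, whose number of cells differed between libraries. F13a1 gave 0, 4, 53 and 319 immune UMIs and Mrc1 0, 0, 26 and 138. All UMIs of Mrc1 but 1 lay in the monocyte or macrophage-like cells, while F13a1 was also found in mast-like cells of Ctrl 2 and TKO 1 and, with 12, 8 and 50 UMIs, in 3 basophil-like cells. Cma1 was called as well (-2.50, SE 0.667, edgeR adjusted p = 0.0459), on 5, 0, 21 and 9 UMIs in keratinocytes beside 997, 954, 8157 and 1192 in the immune cells. Tcf7 gave 12 UMIs, all in lymphoid-like cell 2 of Ctrl 2, and Il7r gave 7, 51, 8 and 25. The haemoglobin genes Hbb-bs (2404 of 2415 UMIs), Hbb-bt and Hba-a2 came from 1 cell, and their near-identical copies cannot be told apart with certainty. S100a14 (41 UMIs), Hspb1 and Calm4, genes of epithelium, came with 94.1% or more of their UMIs from dendritic-like cell 1. The makeup of the libraries moved with these genes, and its part was not tested beyond the mast-like cells.

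Within the mast-like cells alone, a comparison added after the data were seen, 15 genes were called, 9 of them among the 72. It used sums over 3, 4, 17 and 5 cells, the last of them all with high doublet scores. Adamts9 gave 17, 15, 96 and 9 UMIs in mast-like cells and was called (4.46, SE 0.692, edgeR adjusted p = 1.05e-06). These are all of its immune UMIs, so this call reuses the counts of the test above. Slc24a3 gave 6, 3, 33 and 15 UMIs (3.37, SE 0.749, edgeR adjusted p = 0.0123). The serotonin transporter gene Slc6a4 gave 98, 81, 449 and 98 UMIs in mast-like cells and 318, 341, 67 and 75 in keratinocytes (2.06, SE 0.442, edgeR adjusted p = 0.00772). For each of these 3 genes both TKO libraries lay below both Ctrl libraries in keratinocytes. In mast-like cells the CPM levels of the genotypes overlapped for Slc24a3 (127, 63.1, 96.3 and 329) and Slc6a4, and for Adamts9 their intervals did. The immediate early genes Fos, Fosb and Jun were also called, all more positive in mast-like cells. Ctla2a, which encodes an inhibitor of cathepsins, differed the other way (-3.60, SE 0.474, edgeR adjusted p = 7.18e-10), with 3300, 10303, 1889 and 12553 CPM in mast-like cells and 2, 3, 13 and 52 UMIs in keratinocytes.

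A direct comparison of gene levels between Ctrl and TKO immune cells was not tested, because each Ctrl library held 6 cells and the minimum was 10. The mast-like values above cover all 4 libraries. The highest library level of a mast cell gene was 1.30 times the lowest for Cma1, 1.27 for Cpa3, 1.42 for Srgn, 1.45 for Cd63 and 1.5 for Kit. For Tpsb2, Il1rl1, Gata2 and Mcpt4 the highest and the lowest level both lay in Ctrl.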

How the data were processed

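Epcam+α6+ cells were sorted from dorsal skin, and libraries were made with the Chromium Single Cell 3′ kit v3. The authors mapped reads to GRCm39 with Cell Ranger (7.1.0 in the matrix headers) and deposited filtered matrices of raw UMI counts per gene and barcode, 19789 barcodes in all. Library totals were 70749496 to 89655247 UMIs. The counts were used as deposited. The rule for the cells, the gene lists and the lineage markers were chosen with earlier results of these data known, and the Langerhans list was joined to the dendritic lineage after the cells were seen. Of the listed markers, Tcrg-C1, Tcrg-C2, Tcrg-C4 and Rigi were not among the gene names and were not used.

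A cell was placed by the list with the highest share of detected markers, at least 3. Library shares were compared by an exact two-sided permutation test. Genotype by cell class was tested on summed counts with edgeR 4.0.16 (R 4.3.3, quasi-likelihood, TMM, filterByExpr, library as a block), with Benjamini-Hochberg adjustment over all genes. The permutation p-values rest on the spread between 2 embryos per genotype. With the library as a block, the edgeR p-values rest on the difference between immune cells and keratinocytes within a library. The spread between cells does not enter them, so a gene whose UMIs lie in a single cell can be called. DESeq2 1.42.0 was an alternative. Cells were clustered with scanpy 1.11.5 (1000 variable genes, 10 components, 10 neighbours, Leiden resolution 1.0), and doublets were scored but not removed. Named genes were list members, the 10 genes with the largest differences in each direction among those called, and the 10 genes with the largest fold in each lineage among genes found in at least 25% of its cells, except 1 gene that is not reported here. Testing genes between genotypes within the immune cells or a lineage required 10 cells in every library and was not done. The genotype by cell class test had no such minimum and used sums of 6 cells in each Ctrl library (3 and 4 among mast-like cells). On simulated counts for this comparison (18009 unchanged genes), 34 of 100 genes changed 4-fold and 95 of 100 changed 16-fold were called, with 1 false call. These counts were drawn independently around pooled levels, with no library effect and no gene held by a single cell. They therefore do not give the rate of false calls among the genes called in the data. Gene positions are from GENCODE M39 on GRCm39. Alternatives were other limits for cells and markers, another immune rule, doublets left out, thinning to 3000 UMIs, other normalization, and each library left out.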

Additional observations from a re-analysis of the deposited data

Results flagged for a closer look

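The effect of genotype differed between these immune cells and keratinocytes, by edgeR's test of the difference itself, in 72 genes, and in 0 genes when the library block was left out (1068 at an unadjusted p under 0.05). Among the named ones the difference was more negative in the immune cells for H2-Eb1 (edgeR adjusted p = 4.1e-21), Hspb1 (3.29e-08), S100a14 (1.96e-07), Calm4 (4.1e-06), 2610528A11Rik (0.0163), Elovl4 (0.0211), Them5 (0.0236), Tcf7 (0.0354) and Ly6a (0.0393). It was more positive for Hbb-bs (edgeR adjusted p = 2.41e-18), Hbb-bt (1.15e-10), Hba-a2 (3.07e-06), H1f5 (0.000998), Dock1 (0.00271), Pard3b (0.00294), Zfpm2 (0.00587), Mrc1 (0.00599), Egr3 (0.00999) and Creb5 (0.0236).

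Of these more negative genes, H2-Eb1 came from 11 immune cells, while dendritic-like cell 1 held 64 of the 68 immune UMIs of Hspb1, 41 of 41 of S100a14, 99 of 103 of Calm4, 8 of 8 of 2610528A11Rik, 11 of 12 of Elovl4 and 11 of 13 of Them5. The 10 more positive genes all had 0 UMIs in the immune cells of both Ctrl libraries. Such a count gives a near-unbounded difference, so these zeros follow from naming the genes by the size of the difference. H1f5, a linker histone gene of dividing cells, gave 48 and 25 UMIs in TKO 1 and TKO 2, from 7 cells each. Dock1 gave 23 and 38 UMIs, Egr3 9 and 18, Pard3b 12 and 11, Zfpm2 12 and 0, and Creb5 0 and 15.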

How the results depend on the processing

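The difference in the share of immune cells other than macrophages kept its direction under 18 of 18 alternatives, from 0.404 percentage points with all barcodes as the denominator to 0.836, and from 0.626 to 0.836 with 1 library left out. The genotype difference in the mast-like share turned to 7.74 percentage points when cells were chosen by Spi1 or Ptprc, to 1.14 without Ctrl 2 and to 18.9 without TKO 2 (range with 1 library left out -33.3 to 18.9). The dendritic-like difference turned to 1.86 with a minimum of 3000 genes, 1.97 by Leiden clusters, 0.317 without the 4 cells that carried other RNA and 0.379 without Ctrl 1 (range -16.3 to 0.379). With the replicate number as a block, pairing libraries that share only a number, these differences were 0.731, -7.20 and -7.95 percentage points (exact p 0.5, 1 and 1).

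The count of genes whose genotype effect differed from keratinocytes was 12 with a minimum of 3000 genes, 116 by Spi1 or Ptprc (45 shared with the 72), 15 without the doublet-scored cells, 15 in mast-like cells, 34 without the 4 cells, 31 with DESeq2, and 32 to 76 with 1 library left out. Without the library block it was 0 by edgeR (1068 at an unadjusted p under 0.05). The cause was not tested. The median over all genes was -0.25 by DESeq2 with its size factors and 0.28 by edgeR with those size factors (78 genes), so the size factors alone did not turn it. Tests of genes between genotypes within the immune cells or a lineage, and their paired fits, were not run, since the Ctrl libraries held 6 cells each. With 6 cells in a library, depth limits every statement on rare lineages.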

Other observations

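Interferon and antiviral genes were counted in these cells without a reference level or a test. Of 21 genes on the list, 17 were detected, and the median cell held 1.26 p10k (range 0 to 19.7). Dendritic-like cells held 1.77 to 14.7 p10k with 13 of the genes detected, and mast-like cells held 0 to 2.39 p10k with 6 detected. Monocyte or macrophage-like cells held 0 to 19.7 p10k with 14 detected. Isg15, an interferon-induced modifier, gave 9 UMIs in 2 monocyte or macrophage-like cells of TKO 2 and 0 in the other 52 cells. Ifih1, a sensor of double-stranded RNA, gave 2, 0, 3 and 11 UMIs in the immune cells of Ctrl 1, Ctrl 2, TKO 1 and TKO 2.

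Of 21 chemokine receptor and homing genes, 18 were detected in the 54 cells, and differences between lineages were not tested. Ccr2, which guides cells out of the blood, gave 27 UMIs in 6 of 10 dendritic-like cells, 16 in 4 of 4 basophil-like cells and 0 in 29 mast-like cells. Cx3cr1, the fractalkine receptor, gave 58 UMIs in 14 of 29 mast-like cells and 0 in the basophil-like and dendritic-like cells. Itgae, an integrin chain that binds E-cadherin, gave 40 UMIs in 5 dendritic-like cells, and Cdh1, a gene outside that list which encodes E-cadherin, gave 22 UMIs in 4 of 4 basophil-like cells and 7 in 3 mast-like cells.

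Mast cell RNA also occurred in cells that the C1q limit had set aside as macrophages. Cpa3 gave 680 UMIs in 16 of 883 macrophages, 1 cell in Ctrl 1, 1 in Ctrl 2, 6 in TKO 1 (381 UMIs) and 8 in TKO 2 (297 UMIs). In keratinocytes it gave 24 UMIs in 24 of 8292 cells. Mcpt8 gave 53 UMIs in 2 macrophages of TKO 2 and 0 in keratinocytes.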
